A study of Mus musculus with 24 samples.

Results

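The 9 genes described here encode regulators of the ventral neural tube and the hypothalamus: the secreted signal Shh, the homeobox factors Nkx2-1, Nkx2-2, Nkx6-1 and Dbx1, the basic helix-loop-helix factors Olig2 and Olig3, and the bHLH-PAS factors Sim1 and Sim2. They were picked by name, partly for large falls in drug-treated cultures at day 12, and are 9 of the 19938 genes that the arrays could name. Each of the 9 had 1 probe set annotated to it alone. These were probe sets 10528872 for Shh, 10400474 for Nkx2-1, 10488366 for Nkx2-2, 10531790 for Nkx6-1, 10436823 for Olig2, 10361895 for Olig3, 10563797 for Dbx1, 10363056 for Sim1 and 10437055 for Sim2. Because of that choice, every value that uses a day 12 array is given for these genes as a description with no test, and tests are kept to differences among days 4, 6 and 8. The fit takes each gene's error from all 24 arrays, those of day 12 included, so the tests are also given from a fit of the 18 arrays of days 4 to 8 alone, an alternative chosen after seeing the data.

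Expression was read on 24 Affymetrix mouse gene arrays from embryoid bodies (EBs), free-floating aggregates in which embryonic stem cells differentiate. All EBs came from 1 mouse stem cell line, 46C, which carries a green fluorescent reporter in its Sox1 locus. The treated groups received FK506 at 100 ng/ml together with cyclosporin A at 1 ug/ml from day 3 to day 8, and the untreated groups received neither. These compounds block calcineurin, the calcium-dependent phosphatase that activates NFAT factors. Both arms were collected at days 4, 6, 8 and 12 in 3 independent experiments, so each of the 8 groups holds 3 arrays and at day 12 the drugs had been absent since day 8. Both arms began in stem cell medium with LIF, were floated as aggregates on day 3, were plated back onto dishes on day 7 and changed to a serum-free medium at day 8. The 2 drugs were given together, so their effects cannot be told apart.

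In the vertebrate neural tube, Shh secreted by the notochord and then by the floor plate forms a gradient from the ventral midline. Progenitors read it through the receptor Ptch1 and the Gli factors and switch on different homeobox and helix-loop-helix genes at different distances. Nkx2-2 marks the most ventral progenitors next to the floor plate, Olig2 the progenitors of motor neurons, Nkx6-1 a broad ventral domain holding both, and Dbx1 a domain near the middle of the tube. Olig3 is best known from dorsal progenitors, so the shared label of ventral regulators fits it least. In the forebrain Shh also induces Nkx2-1, which specifies the ventral hypothalamus, and Sim1 is needed for the neurons of the paraventricular nucleus, with Sim2 active in part of the same region. Nkx2-1 is in addition a lung and thyroid factor, and Nkx2-2 and Nkx6-1 act in the pancreas.

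Signals are log2 values, and group values are means ± SD of 3 arrays. The median signal of an array lay between 7.80 and 7.88. Because presence calls were not supplied, the 1027 olfactory receptor genes, most of which are silent outside the nose, served as a rough guide to low signal: 95% of them averaged under 7.00. On the 18 arrays of days 4 to 8, Nkx2-1 (mean 6.95), Nkx2-2 (6.97), Sim1 (6.96), Sim2 (6.34) and Olig3 (5.93) averaged below that guide. For those 5 genes, small differences at days 4 to 8 are read on signals within the range of mostly silent genes. Shh (8.26), Nkx6-1 (7.78), Dbx1 (7.76) and Olig2 (7.30) averaged above the guide. The samples are whole EBs, in which fewer cells of a type and less RNA per cell cannot be told apart.

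Of the steps tested, from day 4 to 6 and from day 6 to 8, the later rise of Shh in untreated EBs was the largest change of any of the 9 genes. The Shh signal in treated EBs was 8.26 ± 0.18 at day 4, 7.88 ± 0.12 at day 6, 8.37 ± 0.04 at day 8 and 9.24 ± 0.34 at day 12. In untreated EBs it was 8.26 ± 0.16, 7.96 ± 0.14, 8.82 ± 0.06 and 10.54 ± 0.16 at the same days. The arrays of the arms overlapped at days 4 and 6 and did not overlap at days 8 and 12. From day 6 to day 8 Shh rose by 0.50 in treated EBs (SE 0.13, adjusted p = 0.00427) and by 0.85 in untreated EBs (SE 0.13, adjusted p = 6.16e-05), and both calls held in all 15 alternatives run.

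**Figure D1:**
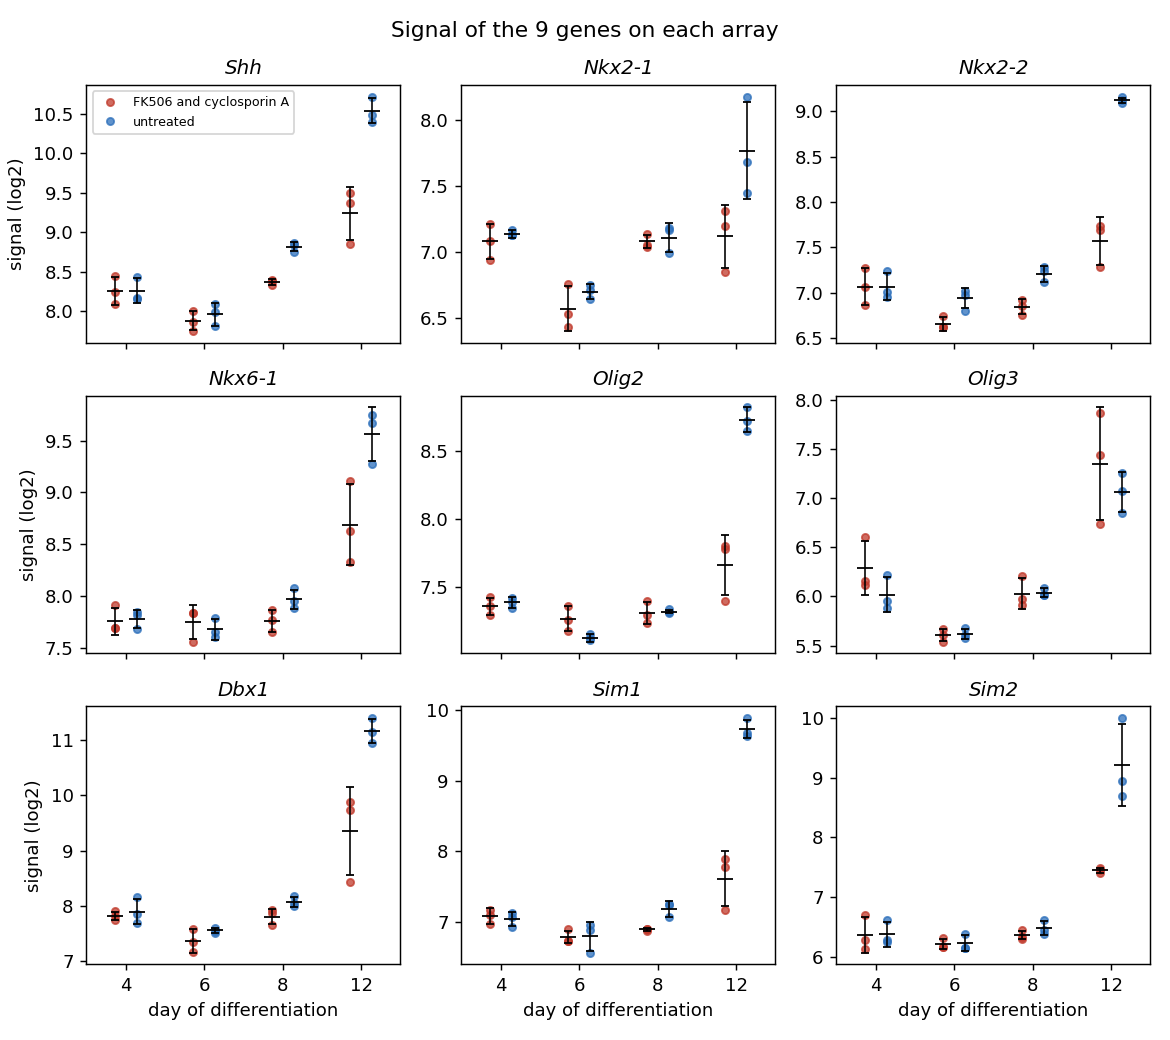
Log2 signal of each gene (y axis) on every array by day of differentiation (x axis), with FK506 and cyclosporin A in red on the left of each day and untreated in blue on the right, and bars for mean ± SD of 3 arrays. At day 12 the untreated arrays lie above the treated ones in 8 panels, with Olig3 the exception.

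The number of genes called between days 6 and 8 depended on the arrays in the fit. In treated EBs 2 of the 9 rose from day 6 to day 8 (16.8% of all genes did), Shh and Nkx2-1 (0.50, SE 0.14, adjusted p = 0.00478), and 0 fell (24.7% of all genes did). From the arrays of days 4 to 8 alone 4 rose (17.1% of all genes), Dbx1 (0.44, adjusted p = 0.00415) and Olig3 (0.42, adjusted p = 0.00653) being added. With all arrays set to a common median, 24.5% of all genes rose and 21.2% fell over those days in treated EBs. The 3 day 8 arrays lay above the 3 day 6 arrays for 5 of the 9 genes in treated EBs, as for 23.9% of all genes. In untreated EBs all 9 genes had their 3 day 8 arrays above their 3 day 6 arrays, a separation shown by 28.7% of all genes. Over that step in untreated EBs 15.9% of genes above the 40th percentile of mean level rose and 28.4% fell. Of the members only Shh, Nkx6-1 and Dbx1 lie there. Of the companion lists below, 26 of 29 hypothalamic, 19 of 20 endoderm and 1 of 10 pluripotency genes averaged more at day 8. So the direction was not particular to the 9 genes. limma called 3 of the 9 higher (17.8% of all genes were): Shh, Nkx2-1 (0.41, SE 0.14, adjusted p = 0.0222) and Sim1 (0.39, SE 0.13, adjusted p = 0.0287). None of the 9 was called lower (18.3% of all genes were). The count higher was 8 of 9 from the arrays of days 4 to 8 alone, all except Sim2 (18.1% of all genes). It was 8 with array weights (24.6%), 9 with the compared groups alone (20.7%) and 1 under quantile normalization (18.2%). Without each array it was 1 to 4 (1940 to 3476 of the 19938 genes). The calls of Nkx2-1 and Sim1 were each lost in some alternatives. Both were lost under quantile normalization (adjusted p = 0.0591 and 0.0652) and without untreated day 8 replicate 1 (adjusted p = 0.0818 and 0.0972) or replicate 2 (0.0638 and 0.0806). Nkx2-1 also lost its call without untreated day 6 replicate 1 (0.0641) or 3 (0.0512), and Sim1 without untreated day 6 replicate 2, where it differed by 0.27 (0.17).

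Before that, from day 4 to day 6, the 9 genes had lain lower on average at the later day in both arms. Of genes above the 40th percentile of mean level, where only Shh, Nkx6-1 and Dbx1 of the members lie, the larger share rose. There 29.8% rose and 19.0% fell in treated EBs, and 33.3% rose and 16.7% fell in untreated EBs. In treated EBs 4 of 9 fell (25.1% of all genes did, and 34.5% with all arrays set to a common median) and 0 rose (19.1%, and 16.5% after that centring): Olig3 (-0.69, SE 0.18, adjusted p = 0.00463), Nkx2-1 (-0.51, SE 0.14, adjusted p = 0.00515), Nkx2-2 (-0.41, SE 0.11, adjusted p = 0.0052) and Shh (-0.38, SE 0.13, adjusted p = 0.0224). The call of Shh ended without treated day 4 replicate 2 (-0.29, adjusted p = 0.112), treated day 6 replicate 1 (0.0904) or treated day 6 replicate 3 (0.0543). In untreated EBs 0 of 9 rose (21.1% of all genes did, and 16.8% after centring) and 2 fell (20.9%, and 34.5% after centring), Nkx2-1 (-0.44, SE 0.14, adjusted p = 0.0123) and Olig2 (-0.25, SE 0.08, adjusted p = 0.0178). The Olig2 call ended under quantile normalization (0.0513) and without untreated day 4 replicate 2 (0.0561) or untreated day 6 replicate 2 (0.0537). From the arrays of days 4 to 8 alone 6 fell in treated EBs (25.2% of all genes) and 5 in untreated EBs (21.4%), Dbx1 being added in both arms (-0.45 and -0.35, adjusted p = 0.00408 and 0.0201). All 3 day 6 arrays lay below all 3 day 4 arrays for 6 of the 9 genes in treated EBs (31.2% of all genes) and for 5 of 9 in untreated EBs (30.8%).

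Under the drugs, treated and untreated EBs were compared at each day to see when the genes of ventral identity began to differ. At day 4, after 1 day of treatment, 0 of 9 genes were called in either direction by limma, 0 of 9 had an unadjusted p under 0.05, and the differences ran from -0.08 (Dbx1) to 0.28 (Olig3). Of all genes 0.00502% were higher and 0.0% lower at that day. At day 6, 0 of 9 were called (1.26% of all genes were higher and 0.577% lower, and 1.18% and 0.993% under quantile normalization), and 1 had an unadjusted p under 0.05. That gene was Nkx2-2, with 6.75, 6.62 and 6.62 in treated EBs, against 6.98, 6.80 and 7.02 in untreated EBs. All 3 treated arrays lay below all 3 untreated ones, as they did for 9.44% of all genes, and the difference of -0.27 (SE 0.11) had adjusted p = 0.273.

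At day 8, the last day of treatment, Shh and Nkx2-2 were lower in treated EBs. Shh had 8.40, 8.33 and 8.39 in treated EBs, against 8.75, 8.86 and 8.84 in untreated EBs, and the difference was -0.44 (SE 0.13, 95% interval -0.72 to -0.17, adjusted p = 0.0368) or 1.36-fold lower. Nkx2-2 had 6.86, 6.92 and 6.76 in treated EBs, against 7.28, 7.24 and 7.12 in untreated EBs, and the difference was -0.37 (SE 0.11, 95% interval -0.60 to -0.14, adjusted p = 0.04), on signals near the low guide of 7.00. In both genes the arms did not overlap, and treated minus untreated was negative in every same-numbered pair of arrays, from -0.53 to -0.35 for Shh and from -0.43 to -0.32 for Nkx2-2. So 2 of 9 were called lower (4.08% of all genes were, and 2.92% after centring) and 0 of 9 higher (4.86%, and 7.63% after centring). The share of all genes called lower at day 8 itself moved, being 0.667% without treated replicate 1, 0.868% without untreated replicate 2, 1.19% without treated replicate 3, 2.49% without untreated replicate 3, 9.52% without treated replicate 2, 7.2% with the replicate block and 15.1% with array weights. From the arrays of days 4 to 8 alone both genes were called (adjusted p = 0.0122 for Shh and 0.0297 for Nkx2-2). Each call was lost in 7 other alternatives, of 15 run for Shh and 14 for Nkx2-2. Over its alternatives Shh ranged from -0.48 to -0.40 with adjusted p from 0.0085 to 0.15, and Nkx2-2 from -0.42 to -0.32 with adjusted p from 0.00233 to 0.166. Shh lost its call without untreated replicate 2 (0.15) or 3 (0.0865) or any treated replicate (0.128, 0.0509 and 0.103) and after centring (0.0525), and Nkx2-2 under quantile normalization (0.0519) and without any untreated replicate (0.104, 0.152 and 0.0507) or treated replicates 1 (0.144) or 3 (0.166). With the day 8 arrays fitted alone neither was called (0.11 and 0.118). That smaller fit called 0 of the 19938 genes, although 3969 had an unadjusted p under 0.05.

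The remaining 7 genes did not pass at day 8. Sim1, with 6.90, 6.87 and 6.90 in treated EBs, against 7.25, 7.24 and 7.06 in untreated EBs, differed by -0.29 (SE 0.13, 95% interval -0.57 to -0.01, adjusted p = 0.187). Dbx1 differed by -0.26 (95% interval -0.74 to 0.21) and Nkx6-1 by -0.21 (-0.51 to 0.09), and their treated arrays also lay below all untreated ones. In all, 5 of 9 genes had that separation, which 14.2% of all genes showed. Sim2 differed by -0.12 (-0.55 to 0.31), Nkx2-1 by -0.04 (-0.32 to 0.25), Olig2 by -0.01 (-0.18 to 0.16) and Olig3 by -0.01 (-0.38 to 0.37). Those intervals leave room for changes as large as that of Shh in Dbx1, Nkx6-1, Sim1 and Sim2, but not for a fall in signal of that size in Nkx2-1, Olig2 or Olig3. Nkx2-1 (mean 6.95) and Olig3 (5.93) averaged below the low guide at days 4 to 8. Their signals may have had little room to fall, so for them the intervals do not bound a fall in expression. The median difference of the 9 genes was -0.21, against -0.04 for all genes.

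The change of the treatment effect between neighbouring days was tested as well, and 0 of 9 genes passed from day 4 to day 6 or from day 6 to day 8. Of all genes, 0.0752% passed upward and 0.0201% downward from day 4 to day 6, and 0.221% and 0.181% from day 6 to day 8 (0.426% and 0.171% after centring). No member had an unadjusted p under 0.05 in either test. Shh came nearest, its treatment effect being lower at day 8 than at day 6 by -0.36 (SE 0.19, 95% interval -0.74 to 0.03, adjusted p = 0.493).

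**Figure D2:**
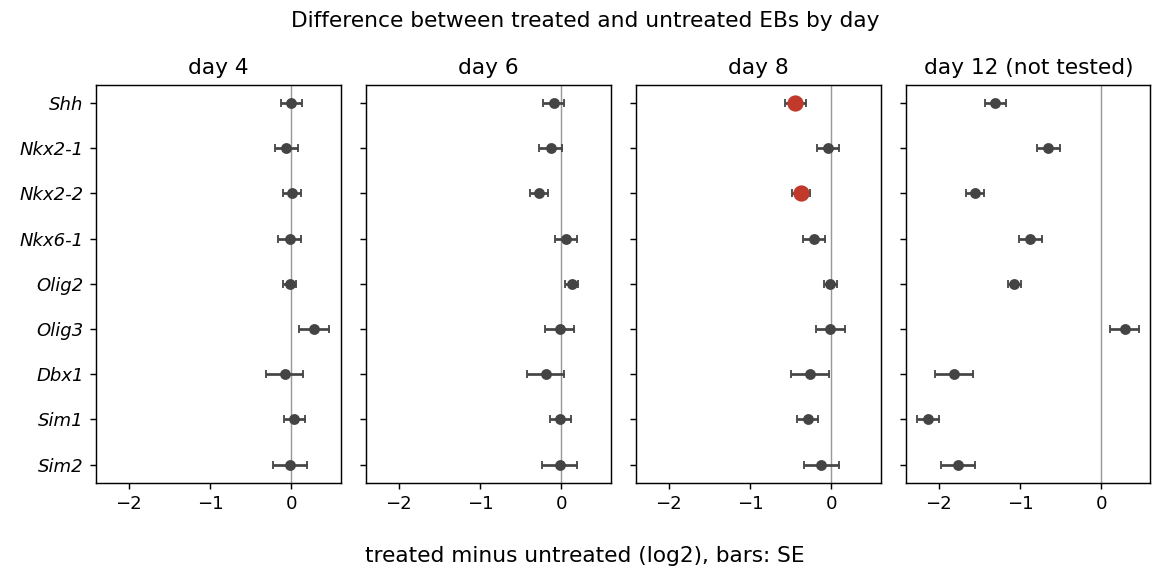
Treated minus untreated signal (log2, x axis) of each gene at days 4, 6, 8 and 12, with bars for the SE of the fit and red points for adjusted p under 0.05 at the 3 tested days. Shh (-0.44) and Nkx2-2 (-0.37) are red at day 8, and 8 of 9 genes lie well left of 0 at day 12, where no test was made.

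At day 12, the point that helped to choose the genes, 8 of the 9 had all 3 treated arrays below all 3 untreated ones. Of all genes 17.1% had that separation, and nothing is read from the comparison, since the choice used it. The median difference was -1.30, against 0.02 for all genes. Starting with the signal itself, Shh had 8.85, 9.50 and 9.37 in treated EBs, against 10.40, 10.72 and 10.49 in untreated EBs. Treated minus untreated was -1.30 (SE 0.13), or 2.46-fold lower. The highest treated array was still well below the lowest untreated one.

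Among the Nkx factors, Nkx2-2 differed most at day 12, with 7.28, 7.74 and 7.69 in treated EBs, against 9.16, 9.12 and 9.09 in untreated EBs, and treated minus untreated was -1.55 (SE 0.11). The treated arrays were spread more widely (SD 0.26) than the untreated ones (SD 0.03), and all lay below them. Nkx6-1 had 8.33, 9.11 and 8.63 in treated EBs, against 9.27, 9.75 and 9.67 in untreated EBs (-0.87, SE 0.14). Nkx2-1, the hypothalamic, lung and thyroid factor, had 6.85, 7.20 and 7.31 in treated EBs, against 7.45, 8.18 and 7.68 in untreated EBs (-0.65, SE 0.14), the smallest of the 8 falls. Its treated arrays at day 12 overlapped its own day 8 arrays.

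Of the helix-loop-helix factors, Olig2 was lower in every treated array at day 12, and Olig3 showed no direction. Olig2 had 7.40, 7.80 and 7.78 in treated EBs, against 8.72, 8.65 and 8.82 in untreated EBs (-1.07, SE 0.08). Olig3 had 7.44, 7.86 and 6.74 in treated EBs, against 7.25, 6.85 and 7.07 in untreated EBs (0.29, SE 0.18). Its treated arrays lay on both sides of the untreated ones, and treated minus untreated was 0.19, 1.01 and -0.33 in the same-numbered pairs.

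The largest differences at day 12 were those of Sim1, Dbx1 and Sim2. Sim1 had 7.16, 7.77 and 7.89 in treated EBs, against 9.89, 9.68 and 9.64 in untreated EBs (-2.13, SE 0.13), 4.38-fold lower. Dbx1, of the progenitors near the middle of the tube, had 8.44, 9.88 and 9.74 in treated EBs, against 10.95, 11.39 and 11.14 in untreated EBs (-1.81, SE 0.23), 3.50-fold lower. Sim2 had 7.41, 7.46 and 7.49 in treated EBs, against 8.69, 10.0 and 8.94 in untreated EBs (-1.76, SE 0.21), 3.38-fold lower. In all 3 genes the arms did not overlap. The SD of Sim2 was 0.04 in treated and 0.69 in untreated EBs, and that of Dbx1 was 0.79 in treated and 0.22 in untreated EBs.

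Since most of these genes increased together after day 8, the sequences at listed starts of these genes were searched for short motifs. Of the 9 genes 7 matched the RefSeq promoter table of build GRCm38.p6, which holds 250 bases before and 50 after a listed start, and the 4 shown are those with the letters TATAAA on either strand: 3 that were lower at day 12 and Olig3. For Sim1 and Nkx2-2 the listed start lies inside the gene and not at its outer end. The Sim1 gene begins at base 50894698, ahead of the window shown. Capitals mark TATAAA and the Sox core ACAAAG, each on either strand, in sequences written 5′ to 3′ on the gene's own strand.
Sim1 chr10:50895401-50895700 (+ strand): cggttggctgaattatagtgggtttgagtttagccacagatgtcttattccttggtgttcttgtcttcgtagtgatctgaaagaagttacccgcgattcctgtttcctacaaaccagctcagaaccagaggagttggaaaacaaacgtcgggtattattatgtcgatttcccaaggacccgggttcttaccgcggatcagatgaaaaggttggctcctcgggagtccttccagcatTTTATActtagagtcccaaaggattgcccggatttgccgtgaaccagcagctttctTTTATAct
Dbx1 chr7:49636786-49637085 (- strand): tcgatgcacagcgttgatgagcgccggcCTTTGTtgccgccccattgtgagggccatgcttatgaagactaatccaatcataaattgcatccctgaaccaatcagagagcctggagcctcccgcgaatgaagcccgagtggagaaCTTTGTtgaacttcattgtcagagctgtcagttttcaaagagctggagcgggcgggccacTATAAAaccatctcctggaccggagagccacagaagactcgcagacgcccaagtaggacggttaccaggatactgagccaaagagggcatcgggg
Olig2 chr16:91225300-91225599 (+ strand): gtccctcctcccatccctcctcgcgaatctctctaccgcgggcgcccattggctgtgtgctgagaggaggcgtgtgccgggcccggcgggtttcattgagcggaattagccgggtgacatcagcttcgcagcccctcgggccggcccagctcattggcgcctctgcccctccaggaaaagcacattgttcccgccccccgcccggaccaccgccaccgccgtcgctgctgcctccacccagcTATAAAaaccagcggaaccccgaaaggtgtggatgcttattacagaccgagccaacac
Olig3 chr10:19356289-19356588 (+ strand): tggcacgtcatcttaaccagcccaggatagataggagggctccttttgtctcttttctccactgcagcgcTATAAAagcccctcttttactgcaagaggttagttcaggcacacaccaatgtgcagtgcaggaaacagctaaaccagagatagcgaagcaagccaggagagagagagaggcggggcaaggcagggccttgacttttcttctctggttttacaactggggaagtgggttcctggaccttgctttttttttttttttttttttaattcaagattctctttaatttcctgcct
TATAAA was in 4 of the 7 promoters and in 13.6% of the 32851 promoters of that length, with its first base 45 bases before the start in Dbx1, 180 before it in Olig3 and 8 before it in Olig2. Sim1 holds it as TTTATA, 14 bases before and 42 after the start. ACAAAG was in Dbx1 alone among the 7 (18.7% of all promoters), and the Gli site core GACCACCCA in 0 of 7 (0.253%). The homeodomain core TAATTA was in 0 of 7 (5.29%), the CCAAT box in 3 of 7 (37.4%) and the E-box CANNTG in 4 of 7 (72.3%). None of these matches overlapped another of the capitalised ones, and a match in these windows is a description of letters.

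Treated replicate 1 was the lowest treated array at day 12 for 8 of the 9 genes, all except Olig3. Without it the treated median change from day 8 to day 12, given below, was 1.06 in place of 0.87. Dbx1 shows its weight: treated minus untreated was -2.51 in pair 1, against -1.52 and -1.39 in the other pairs. Untreated replicate 1 was the lowest of its group for 5 of 9.

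For 7 of the 8 lower genes the treated level had itself increased since day 8, and Nkx2-1 stayed at its day 8 level. In treated EBs all 9 genes averaged more at day 12 than at day 8, by 0.04 (Nkx2-1) to 1.54 (Dbx1) with a median of 0.87, and 8 of 9 had day 12 arrays that all lay above the day 8 ones. In untreated EBs the increase ran from 0.66 (Nkx2-1) to 3.08 (Dbx1) with a median of 1.72, and all 9 separated. Those separations were shown by 20.8% of all genes in treated EBs and 22.6% in untreated EBs. Shh increased by 0.87 in treated EBs and 1.72 in untreated EBs on the log2 scale. Olig3 increased by 1.32 in treated EBs and 1.02 in untreated EBs. Since both increases use day 12 arrays, they were not tested.

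**Figure D3:**
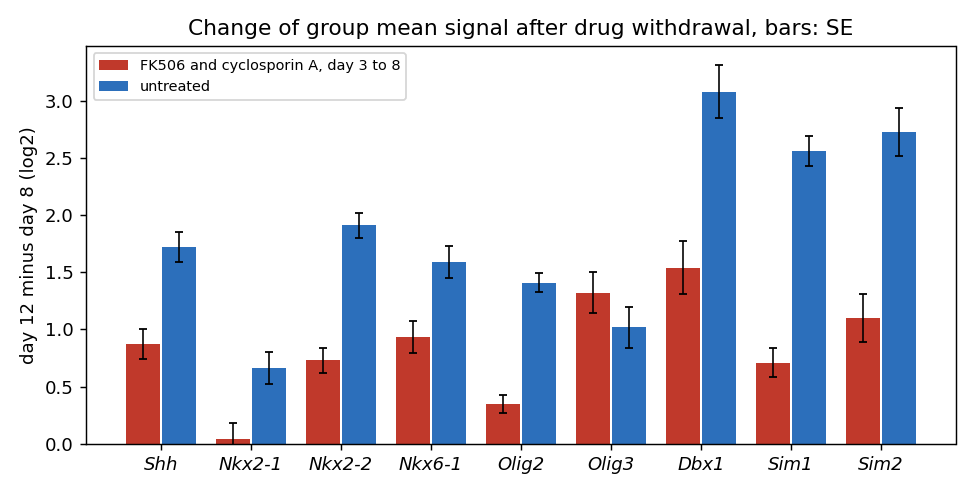
Day 12 minus day 8 (log2, y axis) for each gene, treated in red and untreated in blue, with bars for the SE of the fit. The treated bar is shorter for 8 genes and longer for Olig3 (1.32 against 1.02).

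Ordered over the 8 groups, untreated day 12 stood highest for 8 of the 9 genes, and there its arrays did not overlap those of the group in second place. Nothing is read from that place, since the choice of the genes used the day 12 arrays. The share of all genes with that order was not counted. Treated day 12 was second for 7 genes. Of the 7 neighbouring pairs in each gene's order, just 2 or 3 were separated by more than the spread of their arrays, so most of the order among the groups of days 4 to 8 is not resolved. For Shh, treated day 12 stood second, below untreated day 12 and overlapping untreated day 8.

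Other genes of the same biology came from lists that were chosen with earlier results of these data known, so their counts are descriptions beside the counts of all genes. For every list below, the day 8 shares of all genes were 4.08% lower and 4.86% higher. With the day 8 arrays fitted alone 0 of the 19938 genes were called, so no list gene passed at day 8 in that fit. In the Hedgehog pathway list, 5 of 27 measured genes were lower and 1 higher at day 12 (10.4% and 7.49% of all genes were, and 8.83% and 9.33% after centring, where the list had 4 and 2). The genes that read out the signal were among them. Ptch1, receptor and target, averaged 11.72 ± 0.31 in treated EBs, against 12.48 ± 0.08 untreated (-0.76, SE 0.11, adjusted p = 5.18e-05). Hhip, a target that binds the ligand, averaged 8.33 ± 0.32 in treated EBs, against 9.32 ± 0.05 untreated (-0.99, SE 0.15, adjusted p = 6.63e-05), and Gli1, another target, fell as well (-0.54, SE 0.10, adjusted p = 0.00067). The co-receptor gene Gas1 rose by 0.94 (SE 0.14, adjusted p = 7.71e-05). At day 8 the same targets did not pass: Ptch1 differed by -0.16 (adjusted p = 0.412), Gli1 by -0.18 (0.286) and Hhip by 0.18 (0.492). Disp1 (0.41, adjusted p = 0.029), which releases the ligand from the cell, and the co-receptor gene Boc (0.50, adjusted p = 0.0417) were the 2 of 27 that passed there, both upward. The list's median difference was 0.06 at day 8 and -0.04 at day 12.

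Floor plate and ventral tube genes stood lower together at day 12. Of 15 measured, 12 were lower and 0 higher (10.4% and 7.49% of all genes), with a median of -0.99. Netrin 1 (Ntn1), an axon guidance signal of the floor plate, averaged 9.02 ± 0.55 in treated EBs, against 10.91 ± 0.05 untreated (-1.89, SE 0.19, adjusted p = 1.14e-06). The guidance gene Slit1 (-1.66, SE 0.19), the floor plate forkhead genes Foxa1 (-1.26, SE 0.14) and Foxa2 (-1.0, SE 0.18), and Sulf1 (-1.25, SE 0.11), which encodes a sulfatase acting on heparan sulfate, fell too. Olig1, next to Olig2 in the genome, differed by -0.10 (SE 0.12, adjusted p = 0.651). At day 8, 3 of the 15 were lower (4.08% of all genes), Slit1 (-0.88), Ntn1 (-0.79) and Lmx1b (-0.32), and Foxa2 differed by -0.53 (adjusted p = 0.0653).

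In the list of the intermediate and dorsal tube, 6 of 19 were lower and 2 higher at day 12 (10.4% and 7.49% of all genes), with a median of 0.01. Pax6 (-1.22, SE 0.16), Zic1 (-1.21, SE 0.17) and Irx3 (-0.46, SE 0.09) fell, and Atoh1, a dorsal progenitor gene like Olig3, rose by 0.66 (SE 0.12, adjusted p = 0.000545). At day 8, 7 of 19 were lower (4.08% of all genes), led by Zic1 (-1.10, SE 0.17) and Pax3 (-0.86, SE 0.15), and 1 was higher (4.86%), with a median of -0.13. Ventral neuron genes had 5 of 16 lower at day 12, among them Lhx5 (-1.25, SE 0.17), Sox21 (-0.88) and En1 (-0.48), and 4 of 16 lower at day 8.

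Hypothalamic genes split. There 7 of 29 were lower and 1 higher (10.4% and 7.49% of all genes), with a median of 0.02, as for all genes. Of the 29 differences 16 were positive and 13 negative. The count of higher genes was 3 under quantile normalization and 3 after centring. The 4 genes named next were the first by p at that day. Fezf1, a zinc finger gene of the early forebrain and hypothalamus, averaged 7.75 ± 0.50 in treated EBs, against 9.84 ± 0.21 untreated (-2.09, SE 0.16, adjusted p = 1.94e-08). Fezf2 (-1.54), Foxb1 (-0.81) and Arnt2 (-0.72), the last of which encodes a dimer partner of Sim1, fell with it. At day 8, 9 of 29 were lower and 0 higher (4.08% and 4.86% of all genes), with Trh (-1.42, SE 0.27), Foxb1 (-0.61), Fezf2 (-0.79) and Fezf1 (-0.70) the first by p. Unlike Fezf1, Trh fell with time in untreated EBs, averaging 12.36 at day 6, 12.11 at day 8 and 9.61 at day 12. Its SD in treated EBs at day 8 was 0.87. With the day 8 arrays fitted alone 0 of the 19938 genes were called.

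**Figure D4:**
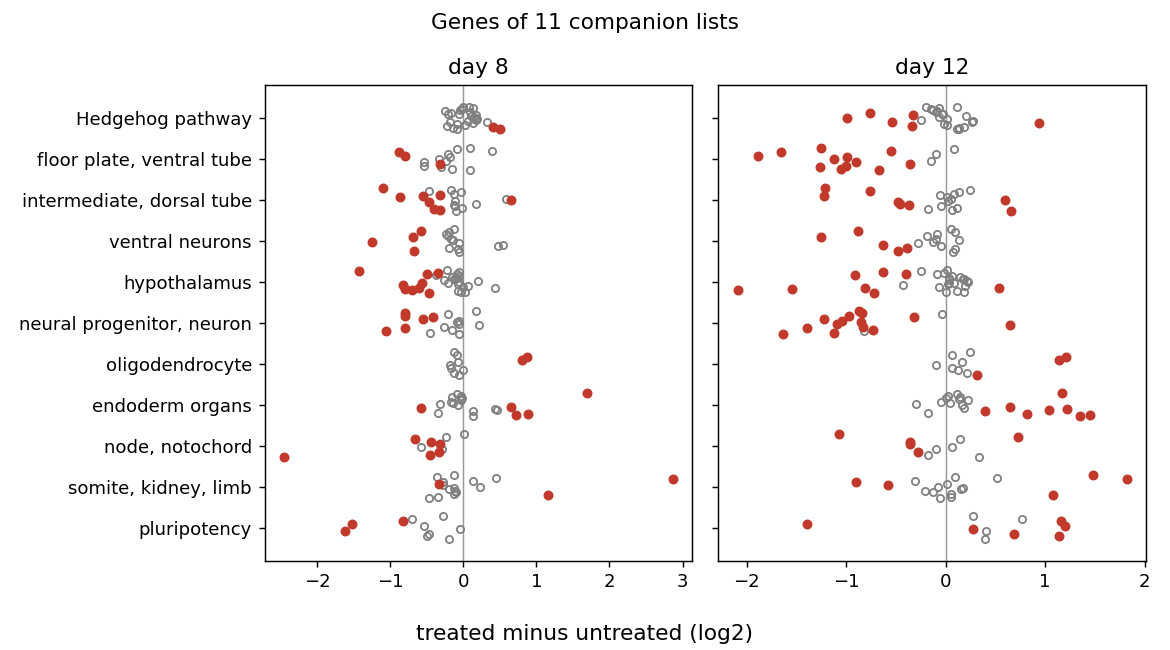
Treated minus untreated signal (log2, x axis) of each measured gene in 11 companion lists at day 8 (left) and day 12 (right), with filled red points for adjusted p under 0.05 and open grey points for the rest. Of the 15 floor plate and ventral tube genes 12 are filled on the left side at day 12, against 3 at day 8.

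Markers of neural cells as a whole, and of other cells that EBs can hold, moved at the same days. In the neural progenitor and neuron list 13 of 16 genes were lower and 1 higher at day 12 (10.4% and 7.49% of all genes). The mean level of the list lay between 9.23 and 9.67 over the treated arrays and between 10.05 and 10.41 over the untreated ones. Sox1, the reporter locus of the line, differed by -0.32 (SE 0.09, adjusted p = 0.0117), Map2 by -1.39, Dcx by -1.64, Tubb3 by -0.87 and Neurog2 by -1.04. At day 8, 6 of 16 were lower and 0 higher (4.08% and 4.86% of all genes), the lower ones including Map2 (-0.80), Sox1 (-0.41), Stmn2 (-0.79) and Fabp7 (-1.06). The mean level lay between 8.45 and 8.71 in treated and 8.81 and 8.99 in untreated EBs. The part of these neural markers in the values of the 9 genes was not tested.

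Shh is also made in the node and notochord, and 6 of 10 genes of that list were lower and 0 higher at day 8 (mean level 7.69 to 7.99 in treated and 8.19 to 8.53 in untreated EBs). Of all genes 4.08% were lower and 4.86% higher at day 8, and 10.4% and 7.49% at day 12. Noto, a notochord homeobox gene, averaged 6.81 ± 0.03 in treated EBs, against 7.47 ± 0.37 untreated (-0.66, SE 0.12, adjusted p = 0.00256), and Nog (-0.44) and Cer1 (-2.45) fell as well. Cer1 was widely spread, with an SD of 1.01 in treated and 0.86 in untreated EBs. Lmx1b (-0.32), among the 6, is counted in the floor plate list too. At day 12, 4 of 10 were lower and 1 higher, Sox9 differing by -1.07, Lmx1b by -0.36, Nog by -0.36 and Shisa3 by 0.73. Which cells the Shh signal came from was not tested. Endoderm and endodermal organs also use Nkx2-1, Nkx2-2, Nkx6-1 and Shh. Of that list 8 of 20 were higher and 0 lower at day 12 (mean level 8.32 to 8.42 in treated and 7.92 to 7.98 in untreated EBs). Afp (1.35, SE 0.12), Apoa1 (1.45, SE 0.14), Gata6 (1.22) and Hnf4a (0.65) led them. None of the list's lung, thyroid and pancreas genes passed at day 12. Among these, Pdx1 differed by 0.22 (adjusted p = 0.124), Sftpc by 0.14, Tg by 0.11, Pax8 by -0.05 and Neurog3 by -0.30. At day 8, 4 of 20 were higher and 1 lower, with Hnf4a (0.65), Apoa1 (0.72) and Ttr (1.69) up and Hhex (-0.57) down.

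For the next 3 lists, the day 12 shares of all genes were 7.49% higher and 10.4% lower. Of 10 oligodendrocyte genes, a lineage that Olig2 also founds, 3 were higher and 0 lower at day 12. These were Myrf by 1.14, Pdgfra by 1.21 and Cnp by 0.31, all of which other cells also express. At day 8 Myrf (0.81) and Pdgfra (0.88) were higher. In the somite, kidney and limb list 3 of 17 were higher and 2 lower at day 12, with Wt1 at 1.48, Tbx4 at 1.82, Pax9 at -0.90 and Pax1 at -0.58, and 2 higher and 1 lower at day 8, with Tbx4 at 2.87, Hand2 at 1.16 and Pax2 at -0.33. In the pluripotency list 3 of 10 were lower at day 8 (Fgf5 -1.61, Otx2 -1.52, Pou5f1 -0.82), with treated SDs of 1.18, 1.12 and 0.84. At day 12, 5 of 10 were higher (among them Nanog 1.20, Dppa5a 1.14 and Pou5f1 1.16) and Otx2 was lower (-1.39). Otx2 did not follow that list in untreated EBs, averaging 11.83 at day 8 and 12.02 at day 12. The list's median change over those days was -2.44. The mean level of that list was 9.34 to 10.81 in treated and 10.58 to 10.89 in untreated EBs at day 8, and 8.92 to 9.19 in treated and 8.37 to 8.71 in untreated EBs at day 12. That of the somite, kidney and limb list was 8.12 to 8.22 in treated and 7.97 to 8.03 in untreated EBs at day 12, and that of the oligodendrocyte list 8.31 to 8.43 and 7.89 to 8.08. The part of these cell types in the values of the 9 genes was not tested.

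Correlations among the 9 genes were higher with the day 12 arrays, which helped to choose the genes, than without them. Over the 24 arrays, which share the day 12 increase, Pearson's r was 0.77 to 0.98 among the 28 pairs without Olig3 and 0.60 to 0.79 in the 8 pairs with it. Over the 18 arrays of days 4 to 8 the 28 pairs ran from 0.20 to 0.83 (median 0.57) and the 8 pairs with Olig3 from 0.39 to 0.81 (median 0.59), so Olig3 stood apart with the day 12 arrays and not without them. Arrays of a day share their stage and culture, so these values describe the set and carry no test.

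Among the 3996 genes whose group means spanned at least 1 log2 unit, the 3 with the highest r over the 24 arrays were taken for each member. Sim1 was among the nearest 3 of both Nkx2-2 (0.98) and Olig2 (0.98), and they were among its own, and Fezf1 (0.98) was near both Nkx2-2 and Sim1, with Neurog2 (0.98) near Nkx2-2 and Myt1 (0.97) and Npas3 (0.97) near Olig2. Shh lay nearest to Dmbx1 (0.98), Dbx1 (0.97) and Lhx5 (0.97), and Dbx1 to Fam181a (0.98), Rfx4 (0.98) and Erbb4 (0.98). Nkx6-1 lay nearest to Sema3d (0.99), Foxd1 (0.98) and Erbb4 (0.98), Sim2 to Lmo3 (0.97), Foxd1 (0.97) and Lsamp (0.97), and Nkx2-1 to Pax1 (0.92), Esm1 (0.92) and Wnt7a (0.91). Olig3 had Msx3 (0.95), a homeobox gene of the dorsal neural tube, then Slc24a2 (0.93) and Tshz3 (0.93). Of these 27 pairs 3 were also among the 3 nearest by Spearman's rho, so the identity of the neighbours depends on the measure.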

How the data were processed

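The deposited table holds log2 signals of 35556 probe sets, which the authors made with RMA in Affymetrix Expression Console, per the submitters' processing notes. The software versions and genome build were not given in the sources used here, and the log2 scale was read from the range of the values. Of the probe sets 21789 carry 1 symbol and 1621 several in the platform annotation, and 12146 are unnamed here. By Entrez identifier 21698 matched the GRCm38.p6 gene table and 0 symbols changed. A gene with more than 1 probe set took the one with the highest mean. limma 3.58.1 in R 4.3.3 fitted 1 mean per group over all 24 arrays, with Benjamini-Hochberg adjustment over 19938 genes at 0.05, two-sided. The fit was tested on simulated data with independent errors and changes larger than the members' day 8 differences. That run does not show how the fit performs on differences of their size or on arrays that deviate together. Arrays have no read depth, and 3 per group limit the precision. The members and lists were chosen with earlier results of these data known. Named genes were the 9 members, up to 4 of each list by smallest p at days 8 and 12, 7 fixed genes and the 3 nearest by correlation. Some further list genes were named afterwards to show the rest of a list.

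Same-numbered arrays deviated together at day 6 (r = 0.297, 0.138 and 0.21), day 8 (0.479, 0.553 and 0.107) and day 12 (0.118, 0.341 and 0.253), all above 0.1. At day 4 they did not all do so (-0.014, 0.191 and -0.053). Differences were therefore also given by same-numbered pair from day 6 on, but the reported fit used no pairing. Treated replicate 3 was slightly closer to untreated replicate 1 than to untreated replicate 3 at day 8 (0.126 against 0.107) and day 12 (0.264 against 0.253). The alternatives were quantile normalization, centring arrays on their medians, dropping genes below the 40th percentile of mean level, averaging a gene's probe sets, limma's trend and robust options, array weights, the replicate block, fitting the compared groups alone and leaving out each array, and, chosen after seeing the data, fitting the 18 arrays of days 4 to 8 alone. Python 3.11.15 with numpy 2.4.6, pandas 2.3.3 and matplotlib 3.10.9 made tables and plots.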

Additional observations from a re-analysis of the deposited data

Results flagged for a closer look

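Olig2 had treated and untreated arrays that did not overlap at day 6 and at day 12, with opposite signs, and passed no test at day 6. At day 6 its 3 treated arrays (7.18, 7.26 and 7.36) all lay above its 3 untreated ones (7.16, 7.11 and 7.13), a difference of 0.13 that did not pass (adjusted p = 0.572), and at day 12 they all lay below, at -1.07. The difference between the days was not tested, since day 12 helped to choose the gene. At day 6 12.1% of all genes had all treated arrays above, so that separation alone is common.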

How the results depend on the processing

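Above the 40th percentile of mean level 3 members (Shh, Nkx6-1 and Dbx1) remained in the fit. Of these 1 was lower in treated EBs at day 8 (6.97% of all genes in that fit). In untreated EBs 0 were lower from day 4 to 6 (16.7%) and 1 higher from day 6 to 8 (15.9%). In treated EBs 1 was lower (19.0%) and 1 higher (19.0%) over the same steps. Against 2 genes lower at day 8, 1 was called under quantile normalization (4.84% of all genes), 1 after centring (2.92%) and 0 with the compared groups alone (0.0%). Without each array 0 to 1 were called (0.667% to 9.52%). The count of genes lower from day 4 to 6 in untreated EBs, 2, was 4 after centring (34.5% of all genes) and 5 with array weights (30.6%). It was 5 with the compared groups alone (23.5%) and 5 from the arrays of days 4 to 8 alone (21.4%). Without each array it was 1 to 2 (2635 to 4092 of the 19938 genes). The count higher from day 6 to 8 in untreated EBs, 3, was 1 under quantile normalization (18.2% of all genes) and 8 with array weights (24.6%). It was 9 with the compared groups alone (20.7%), 8 from the arrays of days 4 to 8 alone (18.1%) and 1 to 4 without each array. In treated EBs the count higher from day 6 to 8, 2, was 4 with the compared groups alone (14.8% of all genes). It was also 4 from the arrays of days 4 to 8 alone (17.1%). The causes were not tested. The median change from day 8 to 12 in treated EBs was 0.72 to 1.06 without each array. With the replicate block 2 members were lower at day 8, and none of the counts of members changed with the pairing. All genes called at day 8 went to 1386 higher and 1436 lower, against 968 and 813. The day 12 median of -1.30 could not change with the block, since every group holds the same replicate numbers. Spearman's rho kept 3 of 27 named neighbours. Of 186 alternative values of single called differences 157 kept their call and 29 lost it. In 42 cases a difference not called as reported was called in an alternative. None changed direction, but many of the alternatives could not change it. Averaging probe sets leaves a member's values as they are, since each member has 1 probe set. The level filter, the trend and robust options, the replicate block and the fits of fewer groups also leave the differences unchanged. They change the error and the adjustment alone. Low signal limits what days 4 to 8 can show for Olig3, Sim2 and the other genes near the olfactory guide.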
